A study of Mus musculus with 50 samples.

Results

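The gene expression of dorsal root ganglia from BALB/CByJ mice was set against that of 22 other inbred strains. BALB/CByJ supplied 2 of the 50 arrays of the series, 1 from males and 1 from females, chosen by their strain label. The comparison group was the 44 arrays of 22 strains, again 1 male and 1 female array each: 129S1/Sv1mJ, A/J, AKR/J, BTBT T+tf/J, BUB/BnJ, C3H/HeJ, c57BL/6J, C57BR/cdJ, C58/J, CBA/J, DBA/2J, FVB/NJ, KK/HIJ, MRL/MpJ, NOD/LtJ, NON/LtJ, NZO/HILtJ, NZW/LacJ, P/J, RIIIS/J, SJL/J and SWR/J. The 4 arrays labelled SM/J or PL/J were not used, because those labels are doubtful. All mice were untreated wildtype animals aged 2 months, and each array carried RNA pooled from 3 mice, so that differences between individual mice were not measured. The title of the series asks how a nicotinic receptor subunit gene relates to chronic pain sensitivity. Strain names are spelled as the labels give them.

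Dorsal root ganglia hold the cell bodies of the sensory neurons that carry touch, temperature, itch and pain from the body to the spinal cord, wrapped by satellite glia and mixed with Schwann cells, vessels, connective tissue and macrophages. Inbred strains differ by fixed sequence variants, and a variant near a gene can set that gene's RNA level in tissues where it is expressed. BALB/c mice are albino, carry the d haplotype of the major histocompatibility complex, and are a common background in pain and immunology research. The BALB/CByJ substrain is known for a deletion in Acads, the short-chain acyl-CoA dehydrogenase of mitochondrial fatty acid oxidation.

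Levels are given as log2(intensity + 1) of GCRMA values, where 1 unit is a doubling of the linear value, and a pair of values for a strain is its male array, then its female array. Of 45037 probe sets other than controls, 22130 exceeded a level of 4 in at least 2 of the 46 arrays and were tested, and they represent 11183 named genes through the probe set with the highest mean. Neuronal markers were high in both BALB/CByJ arrays: Snap25 had 13.65 (male) and 13.53 (female) in BALB/CByJ, against 12.65 to 13.67 in the other arrays, and the nociceptor sodium channel Scn10a had 9.18 and 9.06, against 8.85 to 9.79. The Y-linked gene Eif2s3y separated the arrays labelled male and female without overlap. Xist, which females express, stood between 4.98 and 7.78 in 6 of the 23 arrays labelled male (BTBT T+tf/J, c57BL/6J, NOD/LtJ, NON/LtJ, NZW/LacJ and SWR/J), against 2.36 to 3.97 in the other males, BALB/CByJ included, and at least 9.58 in females. The central glia markers Gfap and Mog stayed below 4 in both. The difference between the 3′ and 5′ Gapdh control signals, a measure of RNA integrity, was -0.578 and -0.671 in the BALB/CByJ arrays, within the -0.725 to 0.604 of the other arrays. The 2 BALB/CByJ arrays also resembled each other: across tested probe sets, centred within each sex, their Pearson r was 0.643, where the same value ran between 0.141 and 0.691 in the other strains. Probe sets are not independent replicates, so no p-value belongs to these correlations.

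BALB/CByJ ganglia differed from the average of the other strains in few genes, from the glyoxalase Glo1 and the glutathione transferase Gstm2, both higher, to the copine Cpne8 and the deubiquitinase Otud3, both lower. Limma found 170 probe sets (0.768% of those tested) and 56 genes (0.501%) that differed by at least 1 log2 unit at an adjusted p under 0.05, with both arrays on that side of the median of the other arrays of their sex. A gene is read through its leading probe set, the one with the highest mean. Of these genes, 30 were higher (0.268%) and 26 were lower (0.232%) in BALB/CByJ. The count of 56 was the lowest of 23 strains under the same rule. P/J, at the other end, had 147 called genes (1.31%). The P/J arrays resembled each other least of all strains (r of 0.141), and the female one had a high Gapdh signal difference, 0.343. Without the size requirement, 174 genes (1.56%) passed the adjusted p in BALB/CByJ. The test measures a strain against the spread between the male and the female pool of each strain. When the spread between strains was used in its place, 7 genes passed: 2900041M22Rik, Tlr4, Rexo4 and Pla2g5 higher, and Arl2bp, Ccl27a and Otud3 lower. Of these, 2900041M22Rik and Pla2g5 had entered the test only through their high BALB/CByJ levels. Of the 56 called genes, 25 lost their call in no fit with a single array left out. Pla2g5 is counted among them, but it failed the filter and was not tested without either BALB/CByJ array. Without the 6 male arrays with an Xist level above 4, an alternative added after seeing the data, 57 genes were called and 55 of the 56 calls were kept, and the r between the BALB/CByJ arrays was 0.616. A strain is said below to share a BALB/CByJ level where both its arrays lay past the midpoint between BALB/CByJ and the mean of the others.

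**Figure D1:**
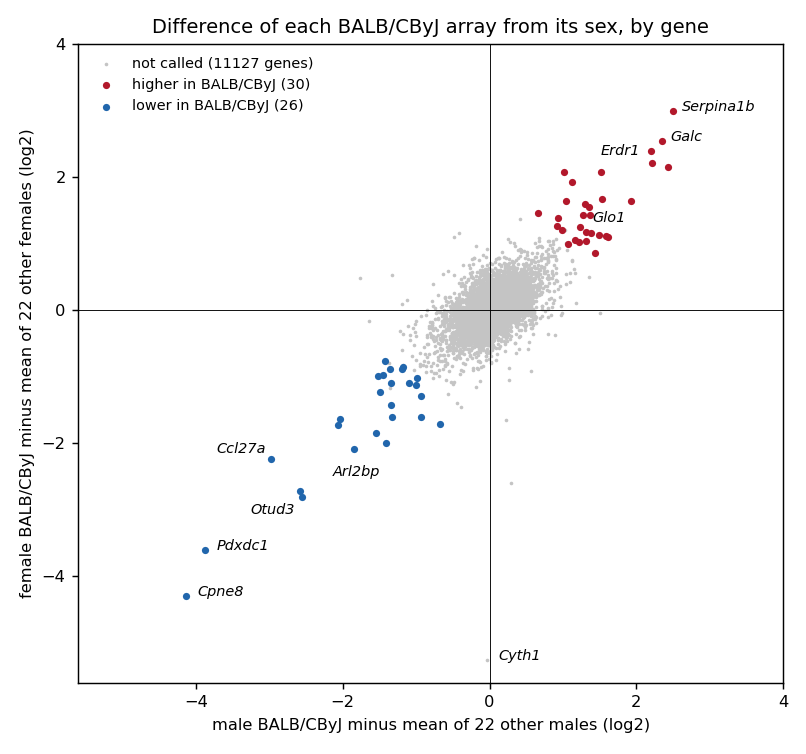
Each point is 1 of 11183 tested genes. The horizontal axis gives the male BALB/CByJ array minus the mean of 22 other males, and the vertical axis the same for females, in log2 units. The 30 genes called higher and 26 called lower lie along the diagonal, and Cyth1 stands apart with a fall in the female array alone.

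The rises included 2 of the 16 tested glutathione and glyoxalase genes, Glo1 and Gstm2, and the lysosomal gene Galc. Glo1, the glyoxalase that clears methylglyoxal with the help of glutathione, had 12.66 (male) and 12.87 (female) in BALB/CByJ, against 10.72 to 12.67 in the other arrays (median 11.17). Both values lay above every other array of their sex. The difference was 1.35 ± 0.09 (SE; limma, adjusted p = 4.99e-11), and A/J and 129S1/Sv1mJ shared the level, the nearest being A/J with 12.51 (male) and 12.67 (female). All 4 Glo1 probe sets were called higher, by 1.35 to 1.78, although on 1 of them BALB/CByJ had 12.02 and 12.39, against 12.14 and 12.45 in A/J. Gstm2, a glutathione S-transferase of the mu class, had 7.55 and 7.43 in BALB/CByJ, against 3.90 to 7.67 in the other arrays (median 5.71). BALB/CByJ had the highest Gstm2 mean of the 23 strains, with a difference of 1.78 ± 0.19 (limma, adjusted p = 5.56e-07), and MRL/MpJ with 7.23 and 7.67 came next. These 2 are 12.5% of the list, against 0.501% of all tested genes, and the median difference of the list was 0.11. Like every list here, it was chosen with earlier results of these data known, so its share is not independent support. With the spread between strains, neither gene passed (limma, adjusted p = 0.306 for Glo1 and 0.355 for Gstm2). Other members differed less, such as the mitochondrial glyoxalase Hagh at 0.11 and the catalytic subunit of glutathione synthesis Gclc at -0.25, neither called. Galc, the lysosomal galactosylceramidase that breaks down a myelin lipid, had 7.08 and 7.32 in BALB/CByJ, against 2.60 to 7.62 in the other arrays (median 3.35). Its other strains fell into a high and a low set: 9 of them, among them A/J, AKR/J and c57BL/6J, shared the high BALB/CByJ level, and a second Galc probe set at 2.56 and 3.22 differed by -0.10 and was not called.

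Baiap2l1, Hunk, Camk4, Rgs5 and Cap1 were also called higher. Baiap2l1, a membrane-bending actin regulator, had 10.27 and 10.35 in BALB/CByJ, against 6.96 to 10.45 in the other arrays (median 7.71). A/J, C3H/HeJ, CBA/J and NON/LtJ shared the high level on both Baiap2l1 probe sets, which differed by 2.29 ± 0.14 and 2.60 ± 0.17 from the mean of the other strains (limma, adjusted p = 7.65e-12 and 1.51e-11). The protein kinase gene Hunk had 5.94 and 5.69, against 3.41 to 5.92 in the other arrays, a difference of 1.44 ± 0.16, with both BALB/CByJ arrays just above every other array of their sex. Camk4, a calcium- and calmodulin-dependent kinase, had 6.23 and 6.51, against 3.19 to 6.75 (difference 1.40 ± 0.22), while its second probe set differed by 0.06 and was not called. Rgs5, a regulator of G protein signalling and a marker of pericytes, had 10.57 and 10.69 in BALB/CByJ, against 8.22 to 11.70 in the other arrays (median 9.13). All 4 Rgs5 probe sets were called, by 1.18 to 2.97, and 6 strains shared the high level of the leading one. The other tested endothelial and mural markers were not called: among them Pdgfrb of pericytes differed by 0.02 and Acta2 of smooth muscle by -0.24, with Cldn5 of endothelium at -0.09. Cap1, an actin-binding protein, was called at 1.80 ± 0.38, yet its BALB/CByJ levels of 10.57 and 10.57 lay close to the median of the other arrays, 10.36. The level was shared by 13 strains, and the other arrays ranged from 3.27 to 10.99. The call was lost without the male (adjusted p = 0.0817) or the female BALB/CByJ array (0.486), and, because the male array then fell on the other side of the median, without the male array of any of 11 strains: A/J, AKR/J, BTBT T+tf/J, c57BL/6J, C57BR/cdJ, KK/HIJ, MRL/MpJ, NON/LtJ, NZO/HILtJ, P/J and RIIIS/J.

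The toll-like receptor genes Tlr4 and Tlr1 were called higher, at low levels. Tlr4, the receptor for bacterial lipopolysaccharide, had 5.04 and 5.06 in BALB/CByJ, against 3.04 to 5.46 in the other arrays (median 3.62), and only A/J shared the level. The difference was 1.35 ± 0.14 (limma, adjusted p = 1.63e-07; 0.0127 with the spread between strains). Tlr4 is named outside the selection rule, after its values were seen, and its second probe set differed by 0.65 ± 0.14. Tlr1, which pairs with Tlr2 to sense bacterial lipopeptides, had 5.33 and 5.39, against 2.86 to 6.33, and 8 strains shared the level. Its call (difference 1.36 ± 0.34, adjusted p = 0.0285) was lost without the male BALB/CByJ array (adjusted p = 0.776) or the female one (0.202). It was also lost without the 6 male arrays with an Xist level above 4 (adjusted p = 0.0595). Il4ra, a cytokine receptor subunit gene likewise chosen after its values were seen, was called lower by -1.04 ± 0.20. That call was lost without the male BALB/CByJ array (difference -0.88), and the second Il4ra probe set differed by -0.25 and was not called. Mndal, an interferon-inducible nuclear gene, had 4.93 and 6.02, against 3.12 to 6.42 (median 3.25), and was no longer called without the female BALB/CByJ array (adjusted p = 0.655). The interferon-stimulated gene list as a whole had 0 called of 17 tested and a median difference of -0.03, and the macrophage list 0 of 13 and -0.22.

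Among antigen-presenting genes, single members differed widely. H2-Ea, the alpha chain of the class II molecule E, is a classic strain marker, because a promoter deletion silences it in some haplotypes. It had 5.96 (male) and 7.50 (female) in BALB/CByJ, against 4.82 to 8.33 in the other arrays (median 5.50). DBA/2J, NON/LtJ, NZO/HILtJ and NZW/LacJ shared the level on that probe set. The call (1.06 ± 0.23, adjusted p = 0.00939) was lost without the female BALB/CByJ array (0.66, adjusted p = 1). A second H2-Ea probe set separated the strains widely: it read 7.34 and 8.24 in BALB/CByJ, against a median of 2.65 in the other arrays, a difference of 4.34 ± 0.23 (limma, adjusted p = 2.43e-13), and DBA/2J and NON/LtJ shared it. The class I gene H2-D1, chosen after its values were seen, had 4 called probe sets besides its leading one. In 3 of them BALB/CByJ had 8.64 to 9.20, against medians of 2.85 to 4.07 in the other arrays. A/J and DBA/2J alone shared these levels, with differences of 4.70 to 5.54, and the remaining set differed by 1.24. The probes of all 4 may cross-hybridise with related class I genes, by their type. The leading H2-D1 probe set differed by 0.78 (adjusted p = 0.0334) and was not called. Of the 7 tested class II genes only H2-Ea was called (14.3%, against 0.501% of all tested genes), and of the 8 tested class I and peptide loading genes 0 were called by their leading probe set, with a median difference of 0.15. The class II genes H2-Aa, H2-Ab1 and H2-Eb1 differed by 0.14, 0.20 and 0.26.

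Serpina1b, a serine protease inhibitor of the antitrypsin family that liver secretes, had the largest fitted rise. It had 6.34 (male) and 7.69 (female) in BALB/CByJ, against 2.34 to 8.65 in the other arrays (median 3.87). DBA/2J, NOD/LtJ and RIIIS/J shared the level. The difference was 2.74 ± 0.44 (limma, adjusted p = 0.000238), a second probe set differed by 2.32, and without the female BALB/CByJ array the adjusted p was 0.0698. Both probe sets can bind related members of this gene family. Albumin (Alb), the defining liver product, had 2.98 and 3.44 in BALB/CByJ, against 2.45 to 10.12 in the other arrays (median 2.70). Of 9 tested liver secretory genes, 1 had a difference from the mean of the other strains above 0, which is Serpina1b itself. Ttr, another liver marker, had 3.75 and 4.91 in BALB/CByJ, against 3.03 to 9.94 in the other arrays (median 3.89). Set against the medians, both BALB/CByJ arrays were higher for Alb, and the female array was higher for Ttr. The source of the Serpina1b signal was not tested. Erdr1, named an erythroid differentiation regulator and lying in the pseudoautosomal region, had 10.36 and 10.29, against 2.89 to 10.75 in the other arrays (median 8.13). MRL/MpJ, NZW/LacJ, SJL/J and SWR/J shared that level, and the difference was 2.21 ± 0.29 (adjusted p = 1.01e-05). By its type, the Erdr1 probe set can bind related sequences. The next annotated gene on the X chromosome, G530011O06Rik, was also higher (4.68 and 5.89, against a median of 3.58), a call lost without the female BALB/CByJ array (adjusted p = 0.822). Zfp991, a zinc finger gene, had 7.05 and 6.78, against a median of 4.45, while its second probe set pointed the other way (-1.29, adjusted p = 0.0593). Tmem267, a membrane protein gene, had 7.60 and 7.88, against a median of 6.86, and lost its call without either BALB/CByJ array (adjusted p = 0.0511 without the male and 0.166 without the female).

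**Figure D2:**
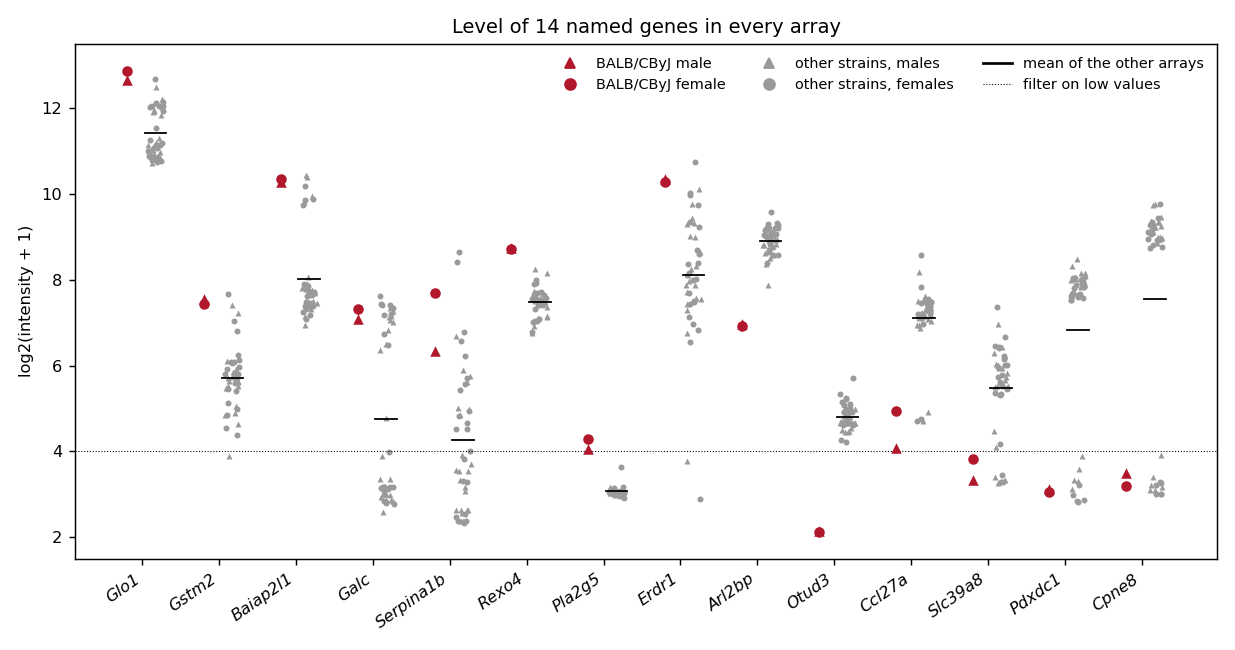
Level of 14 named genes as log2(intensity + 1), on the vertical axis, in every array. Red symbols are the BALB/CByJ arrays, triangles males and circles females, grey symbols to their right are the 44 other arrays with their mean as a line, and the dotted line is the level of 4 used in the filter. For Otud3, Arl2bp, Pla2g5 and Rexo4 the BALB/CByJ arrays lie outside all others, while for Galc, Pdxdc1 and Cpne8 the other strains form a high and a low set.

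The largest fitted falls were those of Cpne8 and Pdxdc1, both near the floor in BALB/CByJ. Cpne8, a copine that binds membranes in response to calcium, had 3.50 (male) and 3.18 (female) in BALB/CByJ, against 3.00 to 9.78 in the other arrays (median 9.00). The fitted difference was -4.21 ± 0.13 (limma, adjusted p = 4.30e-19), or -3.56 with the BALB/CByJ values taken at 4. AKR/J, BUB/BnJ, DBA/2J, MRL/MpJ, NZW/LacJ and SJL/J shared the low level. The other Cpne8 probe sets did not follow: 1 fell by 1.13 and 1 was 0.99 higher. Pdxdc1, a decarboxylase-domain gene, had 3.13 and 3.05, against 2.81 to 8.50 in the other arrays (median 7.83), a difference of -3.74 ± 0.13 (adjusted p = 2.84e-17; -2.83 with the values taken at 4). A second Pdxdc1 probe set gave the mirror image, with 8.91 and 8.96 in BALB/CByJ, against a median of 2.91 in the other arrays, and a difference of 4.73 ± 0.10. C3H/HeJ, CBA/J, DBA/2J, KK/HIJ and RIIIS/J shared BALB/CByJ's side on both. The total level of Pdxdc1 RNA therefore cannot be given a direction from these probe sets.

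Falls also covered a chemokine, a metal transporter and neuronal genes. Ccl27a, a chemokine of skin and other epithelia, had 4.08 and 4.94 in BALB/CByJ, against 4.71 to 8.59 in the other arrays (median 7.26), and A/J and C3H/HeJ shared the low level with 4.71 to 4.91. The difference was -2.61 ± 0.15 (limma, adjusted p = 2.51e-12), and the probe set can bind related copies of the gene. Slc39a8, a zinc and manganese importer, had 3.32 and 3.83, against 3.25 to 7.37 (median 5.70), with the low level shared by A/J, C3H/HeJ, c57BL/6J and MRL/MpJ (difference -1.89 ± 0.20; -1.47 with the values taken at 4). Nptx2, a secreted pentraxin that gathers glutamate receptors at synapses, had 5.13 and 4.32, against 3.79 to 8.52 (median 6.94), and 6 strains shared the low level. Its difference of -1.70 ± 0.25 did not pass without the female BALB/CByJ array (adjusted p = 0.0600). Car8, a carbonic anhydrase-related protein that binds the receptor for inositol trisphosphate, had 3.11 and 3.34, against 3.02 to 8.08 (median 3.55), and 12 strains shared this low level. Its difference of -1.36 was -0.58 with the BALB/CByJ values taken at 4. Zfp945, a zinc finger gene, had 2.67 and 2.81, against a median of 6.21, and 7 strains shared the low level (difference -2.65, or -1.38 with the values taken at 4). Its other tested probe sets differed by -0.03 and -0.15 and were not called, so the fall belongs to the leading one. Gdpd3, a lysophospholipase D, had 3.95 and 3.79, against 3.11 to 10.20 (median 4.59), with 11 strains sharing the low level.

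Falls of Fam89a, Lyplal1, Chchd4, Ankrd29 and 1500004A13Rik were each shared with 3 or 4 strains. Fam89a had 5.93 and 5.78, against a median of 7.62 (difference -1.46 ± 0.21). Lyplal1, a lysophospholipase-like enzyme, had 5.26 and 5.73, against a median of 7.09 (difference -1.38 ± 0.17). Both were called whichever array was left out. Chchd4, which imports proteins into the mitochondrial intermembrane space, had 5.68 and 5.41, against a median of 6.98, and its call was lost without the female BALB/CByJ array (difference -0.93, adjusted p = 0.760). Ankrd29 had 6.26 and 6.67, against a median of 7.93, and fell just short of 1 log2 unit without the male BALB/CByJ array (-0.99). 1500004A13Rik had 3.87 and 3.37, against a median of 5.44, and was not called without the female BALB/CByJ array (adjusted p = 0.171).

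In 58 genes (0.519% of those tested) both BALB/CByJ arrays lay outside the range of the 22 other arrays of their sex, 41 above (0.367%) and 17 below (0.152%). This is a description without a test. Without the 6 male arrays with an Xist level above 4, 73 genes lay outside the range. The count ranked 22 of 23 strains, where 129S1/Sv1mJ had the most, 324. Otud3, a deubiquitinating enzyme, had the widest gap. It had 2.14 (male) and 2.12 (female) in BALB/CByJ, against 4.23 to 5.71 in all others. The fitted difference was -2.68 ± 0.19 (limma, adjusted p = 1.16e-10), or -0.81 with the BALB/CByJ values taken at 4. Arl2bp, which binds a small GTPase of the ARF-like family, had 6.97 and 6.92, against 7.89 to 9.59, a difference of -1.97 ± 0.13 (adjusted p = 2.88e-11), and its second probe set was lower by 3.27 ± 0.33. Rexo4, an RNA exonuclease, had 8.73 and 8.71, against 6.77 to 8.26 in all others, with differences of 1.24 and 1.40 on its 2 probe sets. Pla2g5, a secreted phospholipase A2, had 4.06 and 4.28, against 2.91 to 3.63, a difference of 1.10 that was 0.17 with the other arrays taken at 4. 2900041M22Rik had 4.61 and 4.96, against 2.93 to 4.10. Pla2g5 and 2900041M22Rik were close to the floor and passed the filter only through BALB/CByJ, as 8 of all tested genes did.

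Surf4, a cargo receptor of the endoplasmic reticulum, was higher in BALB/CByJ on all 5 of its probe sets. The leading one had 9.25 and 9.37, against 6.84 to 9.13 in the other arrays. The 5 differences ran from 0.70 to 0.98, under the 1 log2 unit required for a call. Wdyhv1, an amidase of N-terminal glutamine, had 7.78 and 7.82, against 6.31 to 7.58 (difference 0.77). The nucleolar methyltransferase Fbl had 7.71 and 7.80, against 6.19 to 7.50 (difference 0.67, adjusted p = 0.0712). Klhl25, a substrate adaptor of a ubiquitin ligase, lay below the range with 3.31 and 3.72, against 3.76 to 4.87. Smoc1, a matricellular calcium-binding protein, also lay below it, with 4.39 and 4.19, against 4.44 to 6.41.

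Some of these genes are close neighbours in the RefSeq gene order. No run of 3 called genes within 5 annotated genes of each other was found. At that distance the called genes formed 1 pair, Erdr1 and G530011O06Rik. Within 20 genes, a distance chosen after the values were seen, 16 of 105 called or range-breaking genes formed 8 pairs. How many pairs 105 genes would form by position alone was not computed, and the pairs described next are examples. In another, on chromosome 11, 2010001A14Rik and Gemin5 differed by 0.64 and -0.24. Rexo4 and Surf4 lie 3 genes apart on chromosome 2, and both were higher, while Surf1 and Surf2, on the other side of Surf4, differed by 0.20 and 0.07. Pla2g5 and Otud3 lie 6 genes apart on chromosome 4, with Pla2g5 higher and Otud3 lower. Baiap2l1 and Nptx2 lie 6 genes apart on chromosome 5, the first higher and the other lower, and A/J, C3H/HeJ, CBA/J and NON/LtJ shared BALB/CByJ's side for both. On chromosome 3, Dap3, a protein of the small mitochondrial ribosome subunit, lies 7 genes from 1500004A13Rik, and both were lower, Dap3 by -1.10 ± 0.08. DBA/2J and P/J shared the low side of both. Glo1's tested neighbours on chromosome 17 did not move with it: Btbd9 differed by 0.11 and Zfand3 by -0.07, and Dnah8 by 0.20, none called.

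Where a gene had several probe sets, they often disagreed. Of the 56 called genes, 26 had more than 1 tested probe set. In 11 of them another probe set was called the same way, in 19 every other probe set had the same sign, and in Pdxdc1 another was called the opposite way. In reverse, 51 of the 107 named genes with a called probe set had a leading probe set that was not called. Examples chosen after their values were seen are Ntrk2, the receptor for brain-derived neurotrophic factor, and Gabarapl2, an autophagy protein. A minor Ntrk2 probe set, tested only because BALB/CByJ passed the filter, had 4.90 and 4.02 in BALB/CByJ, against a median of 2.34 (difference 2.03), while the leading one differed by 0.08. A Gabarapl2 probe set had 4.95 and 5.09, against 6.26 to 7.40 in all others (difference -1.81), while the leading one differed by 0.21. Isoc1 had 1 probe set lower by -2.33 and 1 higher by 1.04. Where probe sets disagree, the value belongs to the probe set and not to the gene, and the probe sequences were not used here.

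**Figure D3:**
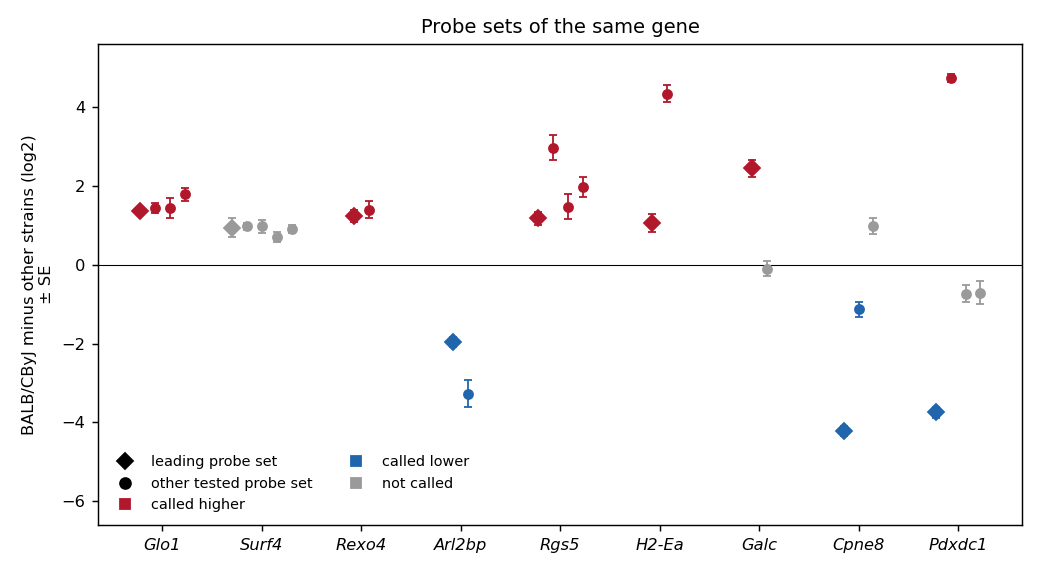
Difference of BALB/CByJ from the other strains in log2 units, with its standard error, for every tested probe set of 9 genes along the horizontal axis. Diamonds are leading probe sets, circles the others, red called higher, blue called lower and grey not called. Glo1, Rgs5 and Rexo4 agree over all probe sets, and Pdxdc1 holds values between -3.74 and 4.73.

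A/J was the strain most like BALB/CByJ. Across the 22130 tested probe sets, sex-centred levels of the BALB/CByJ and A/J arrays correlated with a mean r of 0.272 over the 4 array pairs (0.219 to 0.299). AKR/J came next with 0.0846, and P/J, whose own arrays had an r of 0.141 with each other, was lowest with -0.166. These pairs share the BALB/CByJ arrays, and the centring lowers r between strains. Of the 56 called genes, A/J had both arrays on BALB/CByJ's side of the midpoint for 25 (44.6%), DBA/2J for 19 (33.9%) and C58/J for 17, while FVB/NJ did for 5. No other strain shared 6 of the genes, 1 to 5 strains shared 31, and more than 5 shared 19. Set against A/J alone, BALB/CByJ had 75 called genes (0.671%), against 120 for CBA/J (1.07%) and up to 235 for P/J (2.1%). These calls used p-values adjusted over all 22 comparisons together, without the requirement on the direction of both arrays. Their counts therefore cannot be set beside the 56. The genes that set BALB/CByJ apart from A/J were led by Cpne8 (-5.92) and, on its leading probe set alone, Pdxdc1 (-4.63) on the low side and Serpina1b (4.66) on the high side. Dysf, chosen after its values were seen and whose product reseals the muscle membrane, followed with 7.55 and 6.83 in BALB/CByJ, against 2.74 and 2.32 in A/J, a strain known for a mutation of that gene. Otud3, Arl2bp and Rexo4 also differed between these strains, by -2.60, -1.97 and 1.74.

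**Figure D4:**
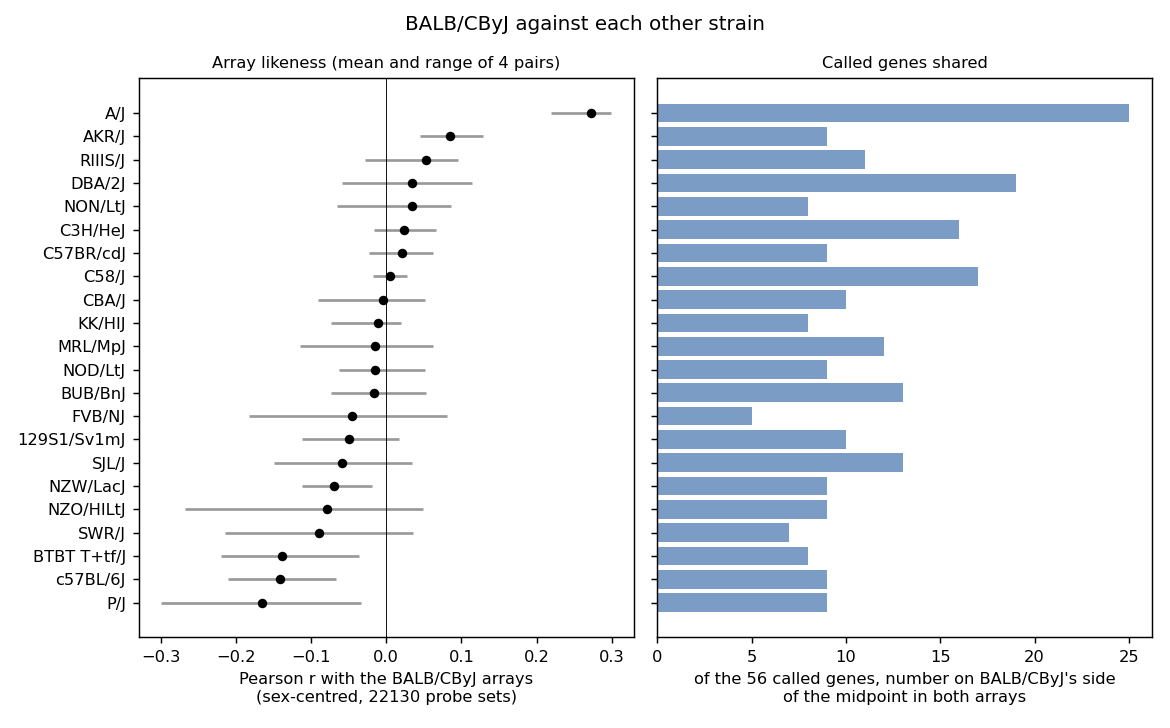
For each of the 22 other strains, the left panel gives Pearson r with the BALB/CByJ arrays (point, mean of 4 array pairs; line, range) and the right panel the number of the 56 called genes on BALB/CByJ's side of the midpoint in both arrays of the strain. A/J leads in both panels, with 0.272 and 25.

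Tested genes of sensory neuron classes and ion channels lay within the range of the other strains where their levels are given here. No leading probe set among them was called outside the itch neuron list. In the glutamate receptor subunit gene Grik1, chosen after its values were seen, a minor probe set was called lower, by -2.48 ± 0.31. It had 2.80 and 2.95 in BALB/CByJ, against a median of 6.07, and 9 strains shared the low level. The leading Grik1 probe set differed by -0.17 and was not called. Chrna6, the nicotinic subunit gene in the series' title, had 7.45 (male) and 7.86 (female) in BALB/CByJ, against 6.49 to 9.54 in the other arrays (median 7.33), and differed by -0.04 ± 0.18. The purinergic receptor subunits P2rx3 and P2rx2 differed by -0.06 ± 0.09 and 0.03 ± 0.22, with P2rx3 at 11.21 and 11.45 and P2rx2, below 4, at 3.36 and 3.43. Chrnb3 lay below the filter, with 2.37 and 2.49 in BALB/CByJ. Limma called 0 of 4 tested nicotinic subunits, 0 of 6 P2X receptors, 0 of 10 sodium channel subunits, 0 of 19 potassium and HCN channels, 0 of 11 calcium channels and 0 of 9 TRP, ASIC and Piezo channels, against 0.501% of all tested genes. Non-peptidergic (7 tested) and peptidergic (8 tested) nociceptor markers had 0 called as well, with median differences of -0.08 and 0.21. The peptide genes Tac1 and Calcb differed by 0.29 and 0.34, neither passing the adjusted p. Of the sodium channel list, the beta subunit gene Scn2b passed the adjusted p (0.0198) with a difference of -0.61, too small for a call. The adjusted p was also passed, without a call, by 1 of 5 C low-threshold mechanoreceptor markers and 1 of 10 large-diameter neuron markers. Of all tested genes, 1.56% passed it.

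Itch neuron markers held 1 called gene of 9 tested (11.1%, against 0.501% of all tested genes), the serotonin receptor gene Htr1f. It had 3.93 and 3.00 in BALB/CByJ, against 2.93 to 6.55 in the other arrays (median 4.83), and 7 strains shared this side of the midpoint. Its difference of -1.20 ± 0.31 (limma, adjusted p = 0.0419) stood at the threshold, and was -0.66 with the BALB/CByJ values taken at 4. The call was lost without the female BALB/CByJ array (-0.68, adjusted p = 1), and without 12 other single arrays with adjusted p from 0.0502 to 0.0527: both arrays of AKR/J, C58/J and KK/HIJ, the male arrays of BUB/BnJ, C3H/HeJ, C57BR/cdJ, DBA/2J and MRL/MpJ, and the female array of NOD/LtJ. Htr5b, another serotonin receptor gene, which stands on no list and was chosen after its values were seen, had 3.60 and 2.44, against 2.30 to 5.27 (median 4.23), a difference of -1.11, or -0.13 with the values taken at 4, and was no longer called without the female BALB/CByJ array (adjusted p = 0.151). Mrgpra3, a receptor of itch neurons, had 7.35 and 7.79 and differed by 0.56 (adjusted p = 0.0668).

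Over all 43 lists, counting each gene once, 440 of 605 genes were tested. Limma called 5 higher (Serpina1b, Gstm2, Glo1, Rgs5 and H2-Ea) and 1 lower (Htr1f), 1.36%, against 0.501% of all tested genes, and 3 in all without the female BALB/CByJ array. The median difference of the list genes was -0.03, where that of all tested genes was 0.01. In 37 lists no gene was called. Among their 381 tested genes, 41 had an unadjusted limma p under 0.05, 20 higher and 21 lower. Over all tested probe sets, 1879 of 22130 had such a p. Among all tested genes 5822 of 11183 differences were above 0, and the sign counts of lists were not tested. All 12 skeletal muscle markers had differences below 0 (median -0.50, adjusted p 0.941 or above), with Ckm at 5.57 and 5.65 in BALB/CByJ, against 4.32 to 8.76 in the other arrays. Collagen and matrix genes had 1 of 16 differences above 0 (median -0.24), and Sparc, a collagen-binding matrix protein, was lower by -0.50 (adjusted p = 0.0286). Schwann cell and myelin genes had a median of -0.26 with 2 of 13 above 0, and satellite glia markers -0.02 with 3 of 7. In bulk tissue, fewer cells of a type and less RNA per cell cannot be told apart. Of the mitochondrial lists, 19 of 22 respiratory chain genes (median 0.06) and 16 of 22 fatty acid oxidation genes (median 0.09) were above 0, with 0 called in both.

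**Figure D5:**
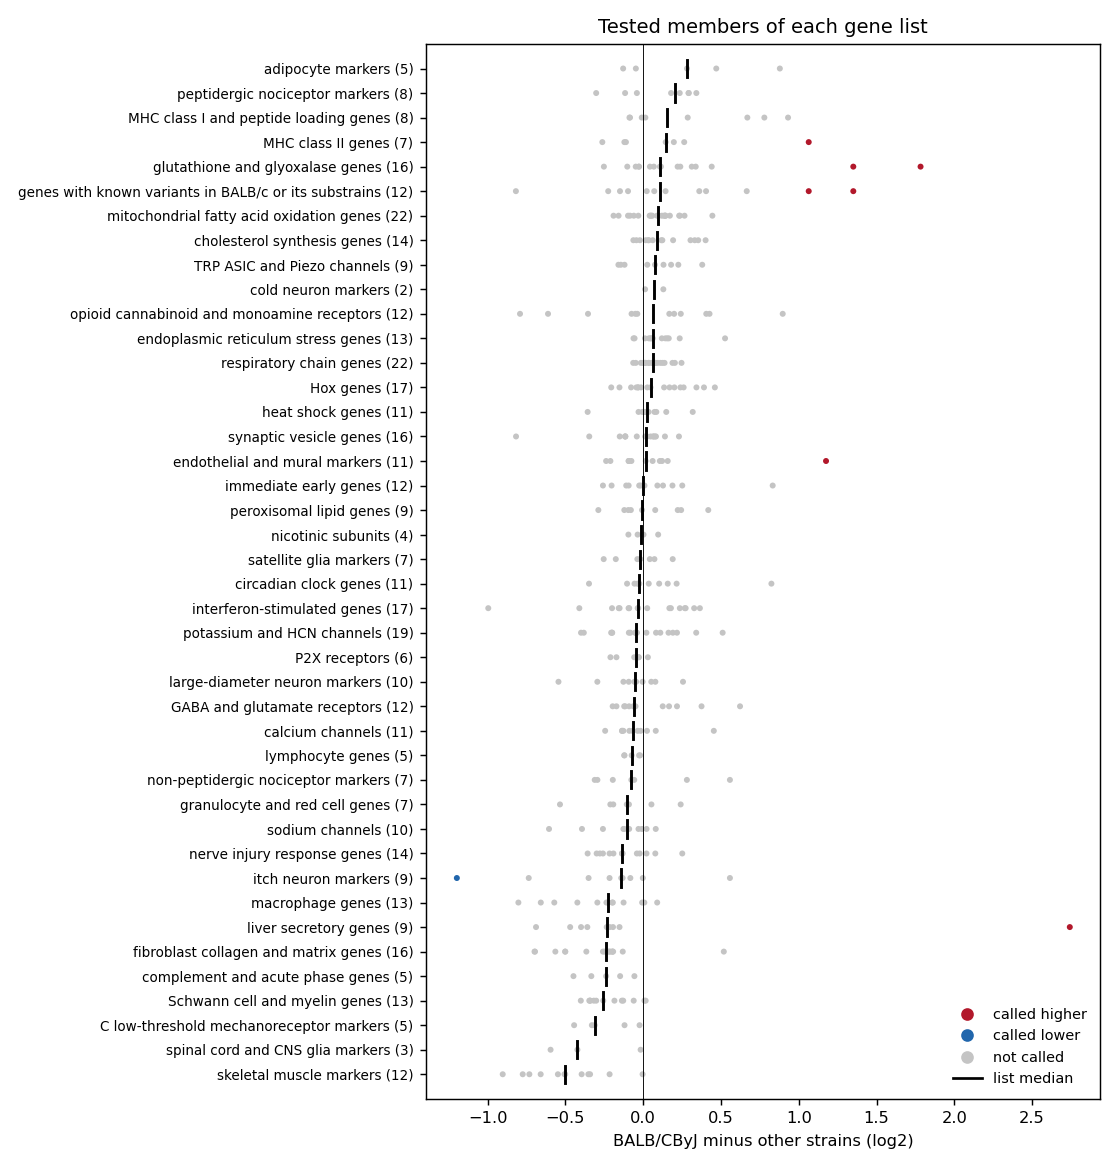
Each point is a tested gene of the list named at the left, with the number tested in parentheses, and the horizontal axis gives BALB/CByJ minus the other strains in log2 units. Black marks are list medians, which lie between -0.50 for skeletal muscle markers and 0.28 for adipocyte markers, and coloured points are called genes; the sex chromosome list is not drawn.

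Genes with known variants in BALB/c mice or their substrains held 2 called genes of 12 tested (16.7%, against 0.501% of all tested genes), Glo1 and H2-Ea, both described above. The list was drawn up with Glo1's earlier result known. Acads had 3.78 and 3.43 in BALB/CByJ, against 3.42 to 4.24 in the other arrays (median 3.79). All of these lie around the filter level of 4, and the difference of -0.10 ± 0.10 was not detectable at this signal. Prkdc, the DNA-dependent protein kinase in which BALB/c mice carry coding variants, had 6.45 and 6.49 and differed by 0.14 ± 0.21. Mtor, another gene with a BALB/c coding variant, differed by -0.15. Levels of RNA do not show coding changes.

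A limma interaction term found 2 of 22130 tested probe sets (0.00904%) in which the male and the female BALB/CByJ array departed differently from the other strains, and 154 had an unadjusted p under 0.05. This term was set against the spread between strains, and not the spread within strains behind the 170 called probe sets. Its count is therefore not comparable with that one. Each arm is 1 array, assumed to vary like the arrays of the other strains, so a single deviating array and a sex difference cannot be told apart.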

How the data were processed

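Dorsal root ganglion RNA was measured on Affymetrix mouse expression arrays in pools of 3 mice per sex and strain. The deposited values are linear intensities, computed by GCRMA; the submitters' processing notes also name R 2.6.2. Other settings are not given in the sources used here. The lowest intensity ran from 1.629 to 1.655 in male and from 1.726 to 1.744 in female arrays, so sex was always a term in the fit.

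Values were taken as log2(value + 1). Of 45037 non-control probe sets, 34945 had 1 gene symbol, 932 several and 9160 none, and 34741 matched RefSeq (GRCm38.p6, used for names and gene order). Probe sets above 4 in at least 2 arrays entered a linear model (limma 3.58.1, R 4.3.3): strain means plus sex, BALB/CByJ minus the mean of 22 strain means, 46 arrays. The fit was tested on simulated data in which the 22 other strains did not differ from each other. That test does not show how reliable the calls in these data are. A call needed a Benjamini-Hochberg adjusted p under 0.05 over all tested probe sets, a difference of at least 1 log2 unit and, in both arrays, the same direction against the median of the 22 other arrays of their sex. The probe set with 1 symbol and the highest mean stood for a gene. A strain shares a gene when both its arrays lie beyond the midpoint between BALB/CByJ and the mean of the others.

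The text names the 15 largest rises and falls, the 10 widest gaps among genes outside the range, up to 4 called genes per list and fixed genes including Chrna6, P2rx2, P2rx3, Acads, Glo1, Prkdc and Erdr1; Gapdh has no single-symbol probe set apart from controls. Members and lists were chosen with earlier results of these data known. The number of arrays, 2 for BALB/CByJ, limits the precision. With 1 pool per sex, p-values of the fit of strain means measure only how far the pools of a strain lie apart once sex is removed. P-values of the interaction term, and those given with the spread between strains, rest on the spread between strains instead.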

Additional observations from a re-analysis of the deposited data

Results flagged for a closer look

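In 2 probe sets the departure of BALB/CByJ differed between its male and its female array by the limma interaction term. The leading probe set of Cyth1, a cytohesin that activates ARF GTPases, had 8.32 (male) and 2.70 (female) in BALB/CByJ, against 7.60 to 8.83 in the 44 other arrays. The male departure minus the female one was 5.22 (adjusted p = 1.77e-14). The second Cyth1 probe set had 4.51 (male) and 3.05 (female) in BALB/CByJ, against 2.86 to 5.34 in the others. The other probe set has no gene symbol here and had 4.28 (male) and 7.28 (female) in BALB/CByJ, against 3.99 to 5.68 in the others. There the male departure minus the female one was -3.02 (adjusted p = 0.00106). Each value rests on 1 array per sex, so a single deviating array and a sex difference cannot be told apart.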

How the results depend on the processing

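With the spread between strains, 24 probe sets, 7 genes and 0 list genes were called, 7, 3 and 0 in males alone, and 11, 5 and 0 in females alone. In the limma fit with both sexes, 16 of 440 tested list genes had an unadjusted p under 0.05. The share over all tested genes in that fit is not given here. A pseudocount of 16 gave 92 probe sets and 28 genes. With the adjusted p alone (chosen after seeing the data; same direction in both arrays), 396 probe sets, 171 genes and 13 list genes passed. A filter at 6 gave 36 genes outside the range and 1 probe set with a sex difference, and no filter gave 99 such probe sets. Leaving out each single array gave 124 to 175 probe sets, 41 to 58 genes, 3 to 7 list genes, 58 to 69 genes outside the range, 2 to 3 probe sets with a sex difference, and r of 0.626 to 0.648 between the BALB/CByJ arrays and 0.256 to 0.275 with A/J. Quantile normalization, within each sex or over all arrays, and array weights kept all 56 calls. Keeping SM/J and PL/J kept 49, leaving out the male P/J array 55, and leaving out A/J or the 2 arrays with the highest Gapdh ratio 54 each.

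Other probe sets of a called gene turned the direction in 7 cases: Cpne8 (0.99), Galc (-0.10), Gng4 (-0.024), Lsm12 (-0.12), Pdxdc1 (4.73), Sh2d5 (-0.26) and Zfp991 (-1.29). The cause was not tested. No paired analysis was possible because the labels give no replicate numbers, and sex is a term of the fit. Signals around 4 limit what can be said of genes such as Acads, Otud3 and Pla2g5.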
